A study of Danio rerio with 4 samples.

Results

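Matrix metalloproteinases (MMPs) and their tissue inhibitors (TIMPs) were followed at the transcript level in zebrafish cardiac ventricles 4 days after injury. A list of 10 gene symbols (mmp2, mmp9, mmp13a, mmp14a, mmp14b, mmp15a, mmp15b, timp2a, timp2b and timp4.3) was looked up in a deposited table of 19875 genes, and rows whose symbol equalled a listed one were taken. The list matched 11 rows, 8 for MMPs and 3 for TIMPs, because mmp13a names 2 Ensembl genes. The libraries were 2 from ccn2a-/- ventricles and 2 from wild-type ventricles, each with the bulbus arteriosus and the atrium dissected away, all taken 4 days after injury (4 dpci in the labels). The sources used here do not state the lesion of the ccn2a allele, how many hearts made up a sample, or the age and strain of the fish. Nor do they say that replicates came from separate fish, so each p-value below reflects sample-to-sample spread of a kind that may be purely technical. The product of ccn2a is a matrix-associated signalling protein released by cells (also known as connective tissue growth factor), and the comparison asks how the injured ventricle's transcripts differ when it is mutated.

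MMPs are zinc-dependent endopeptidases that cut collagens, fibronectin, laminins and other matrix proteins. They are made as inactive zymogens, and are either secreted or, as the membrane-type enzymes, anchored at the cell surface and activated by furin-like convertases. TIMPs bind the active site of MMPs and block it. In mammals, TIMP2 also helps membrane-bound MMP14 to activate the zymogen of MMP2. In the injured heart these proteins are known for the turnover of the provisional and collagenous matrix. The values below are transcript levels, which do not report protein or enzyme activity.

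Values are normalised read counts, read here as reads per gene divided by a size factor for each library and then rounded. The approximate depth was between 17.2 M and 21.5 M reads per library. Wild-type replicate 2 had 7.66% of its summed values in mitochondrial genes, against 13.4% to 14.7% in the other libraries. Principal component 1, with 64.1% of the variance, placed mutant replicate 1 (78.9) and wild-type replicate 2 (-70.6) at its ends, with mutant replicate 2 (16.4) and wild-type replicate 1 (-24.7) between them. The latter pair had the highest Pearson r across genes of the 6 pairs of libraries, 0.970, where genes are not independent replicates. The targeted gene, ccn2a itself (ctgfa in the table), was at 3070 and 1473 in the mutants and at 4737 and 4411 in wild type, a log2 fold change of -1.10 (SE 0.355) that did not pass (limma, adjusted p = 0.381). Without a stated lesion, this level is no full check of the genotype. Ventricular cardiomyocyte markers were abundant in every library, with myl7 at 362054 and 305628 in the mutants and at 257710 and 139544 in wild type (replicate 1 before replicate 2, here and below). The atrial myosin gene myh6 was still present, at 3276 to 5854.

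None of the 11 rows passed the test between genotypes. All 11 reached the minimum mean of 10 and were tested with limma among 16730 genes. At a Benjamini-Hochberg adjusted p of 0.05, 0 of the 11 were called, beside 0 (0%) of all genes tested, with limma-trend and also with limma voom. At an unadjusted p under 0.05, 1 row was lower in the mutant (mmp15a) and 0 were higher, beside 6.93% of all genes lower and 5.89% higher. With voom, 2 of the 11 rows were under 0.05 unadjusted, mmp15a and mmp15b, beside 14.1% of all genes tested (2355 genes) in either direction, a share near the background. The mutant libraries both lay below both wild types for 4 of the 11 rows and both above for 2, beside 25.7% and 26.6% of all genes tested, so these shares are near the background. The median log2 fold change (mutant minus wild type) was -0.14 over the 11 rows, -0.27 over the 8 MMP rows and 0.17 over the 3 TIMP rows, and 6.28e-05 over all genes tested. With signs ignored, the medians were 0.20, 0.27 and 0.20 in the same order, and 0.37 over all genes tested.

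**Figure D1:**
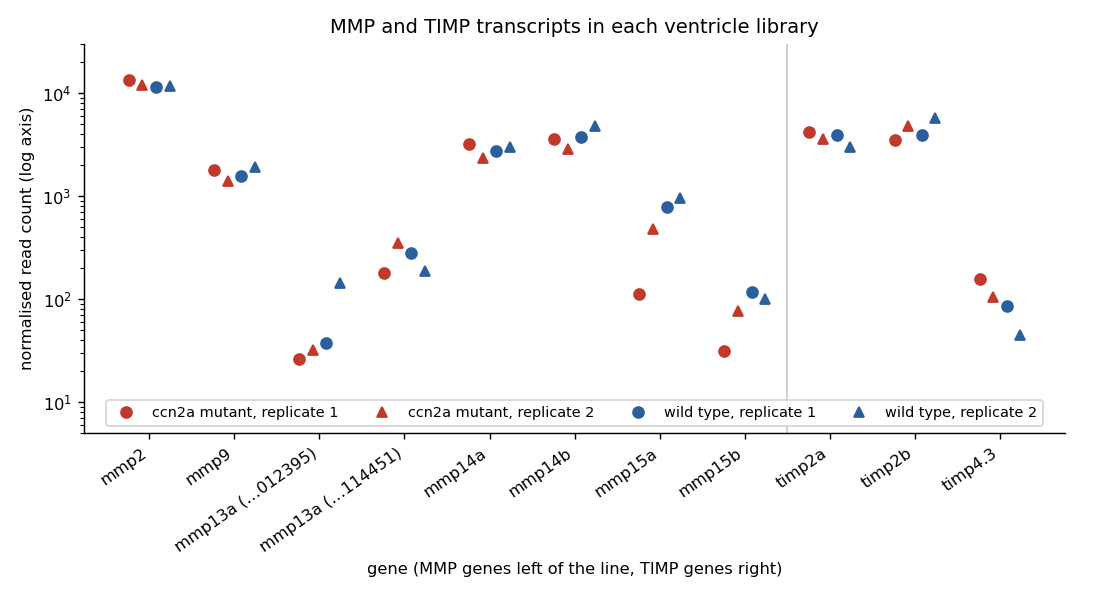
Normalised read count (log axis) of each MMP and TIMP row in the 4 libraries, with 1 point per library and no averaging. The membrane-type genes mmp15a and mmp15b are lowest in mutant replicate 1, at 111 and 31, while mmp2 stays between 11361 and 13518.

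The gelatinase genes were close to even between the genotypes. The gene mmp2 (ENSDARG00000017676, chromosome 7, 35410050 to 35432901), whose product degrades gelatin and basement membrane collagen, had the highest read counts of the 11 rows, which are not scaled to transcript length. It was at 13518 and 11934 in the mutants and at 11361 and 11645 in wild type. Both mutants lay above both wild types, by a small margin. The means were 12726 ± 1120 and 11503 ± 201 (SD, n = 2 each), and the log2 fold change was 0.14 (SE 0.211, 95% interval -0.37 to 0.66; limma, adjusted p = 0.748). Coordinates here and below are those of the deposited table, whose build is not settled. The log2 fold change turned to -0.11 under quantile normalisation.

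The second gelatinase gene, mmp9 (ENSDARG00000042816, chromosome 8, 24281512 to 24295947), is known as an inflammation-induced gene of leukocytes and wounded tissue in zebrafish. It was at 1780 and 1390 in the mutants and at 1568 and 1918 in wild type. The groups overlapped, with the highest and the second highest value in different genotypes. The means were 1585 ± 276 and 1743 ± 247 (SD, n = 2 each), with a log2 fold change of -0.14 (SE 0.221, 95% interval -0.68 to 0.40; limma, adjusted p = 0.765), so the interval allows a difference in either direction. It changed sign when mutant replicate 2 (0.038) or wild-type replicate 2 (0.0046) was left out.

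The collagenase gene mmp13a appeared as neighbouring rows on chromosome 10, at 38593645 to 38602561 (ENSDARG00000012395) and at 38610741 to 38620514 (ENSDARG00000114451), both on the plus strand and separated by 8179 bases. The collagenase that mmp13a encodes cuts fibrillar collagen. The first row was at 26 and 32 in the mutants and at 37 and 144 in wild type. The groups did not overlap, but the gap between the wild types (1.93 on the log2 scale) was wider than the difference between the genotypes. The log2 fold change was -1.31 (SE 0.671; limma, adjusted p = 0.409), and it was -0.35 without wild-type replicate 2 and -2.28 without wild-type replicate 1.

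The second mmp13a row was at 177 and 353 in the mutants and at 280 and 188 in wild type, with both wild types inside the range of the mutants. Its log2 fold change was 0.12 (SE 0.401; limma, adjusted p = 0.899), from -0.37 without mutant replicate 2 to 0.62 without mutant replicate 1. Copies this close can share reads, and no source used here states how such reads were assigned, so both rows are uncertain. Summed over the 2 rows, mmp13a was at 203 and 385 in the mutants and at 317 and 332 in wild type, which overlap. The next gene along the chromosome, mmp30, was at 8 or fewer in every library.

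Among membrane-type genes, mmp14a and mmp14b encode co-orthologs of mammalian MMP14, a surface collagenase. The gene mmp14a (ENSDARG00000002235, chromosome 7, 24124289 to 24149670) was at 3236 and 2326 in the mutants and at 2716 and 2962 in wild type. The mutants enclosed both wild types, and the log2 fold change was -0.05 (SE 0.227, 95% interval -0.60 to 0.51; limma, adjusted p = 0.932). The sign changed when mutant replicate 2 (0.19) or wild-type replicate 2 (0.015) was left out.

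The paralog mmp14b (ENSDARG00000008388, chromosome 2, 38161318 to 38183641) was at 3595 and 2894 in the mutants and at 3746 and 4777 in wild type. Both mutants lay below both wild types, although mutant replicate 1 and wild-type replicate 1 were close. The means were 3244 ± 496 and 4262 ± 729 (SD, n = 2 each), with a log2 fold change of -0.39 (SE 0.225, 95% interval -0.94 to 0.16; limma, adjusted p = 0.437), a level 1.31-fold lower that did not pass. It was -0.22 without wild-type replicate 2 and -0.57 without wild-type replicate 1.

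The widest difference of the 11 rows was at mmp15a (ENSDARG00000051962, chromosome 25, 17559399 to 17590971), which encodes a membrane-type MMP like mammalian MMP15. It was at 111 and 473 in the mutants and at 780 and 954 in wild type. All mutant values lay below all wild-type values, but the mutants themselves differed by 2.08 on the log2 scale and the wild types by 0.29. The means were 292 ± 256 and 867 ± 123 (SD, n = 2 each), with a log2 fold change of -1.91 (SE 0.638, 95% interval -3.47 to -0.35; limma, unadjusted p = 0.0244, adjusted p = 0.381), a level 3.75-fold lower, ranked 1013 of 16730 genes by p. Without mutant replicate 1 it was -0.87, and without mutant replicate 2 it was -2.95. With wild-type replicate 1 left out the log2 fold change was -2.05, and with wild-type replicate 2 left out it was -1.76. The row overlaps the gene vac14 on the opposite strand by 1066 bases, and although the library kit keeps the strand, no source used here states whether reads were counted by strand. The values of vac14 were 233 and 279 in the mutants and 306 and 322 in wild type. Like mmp15a, vac14 was lower in both mutants, with a narrower spread. Whether the 2 rows share reads was not tested.

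Its paralog mmp15b (ENSDARG00000013072, chromosome 2, 28453338 to 28521429) was at 31 and 76 in the mutants and at 117 and 100 in wild type. Again mutant replicate 1 was the lowest library and mutant replicate 2 the next. The means were 53.5 ± 31.8 and 108 ± 12.02 (SD, n = 2 each), with a log2 fold change of -1.14 (SE 0.488, 95% interval -2.33 to 0.06; limma, adjusted p = 0.389), and it was -0.50 without mutant replicate 1 and -1.77 without mutant replicate 2. Summed, the paralogs mmp15a and mmp15b were at 142 and 549 in the mutants and at 897 and 1054 in wild type.

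**Figure D2:**
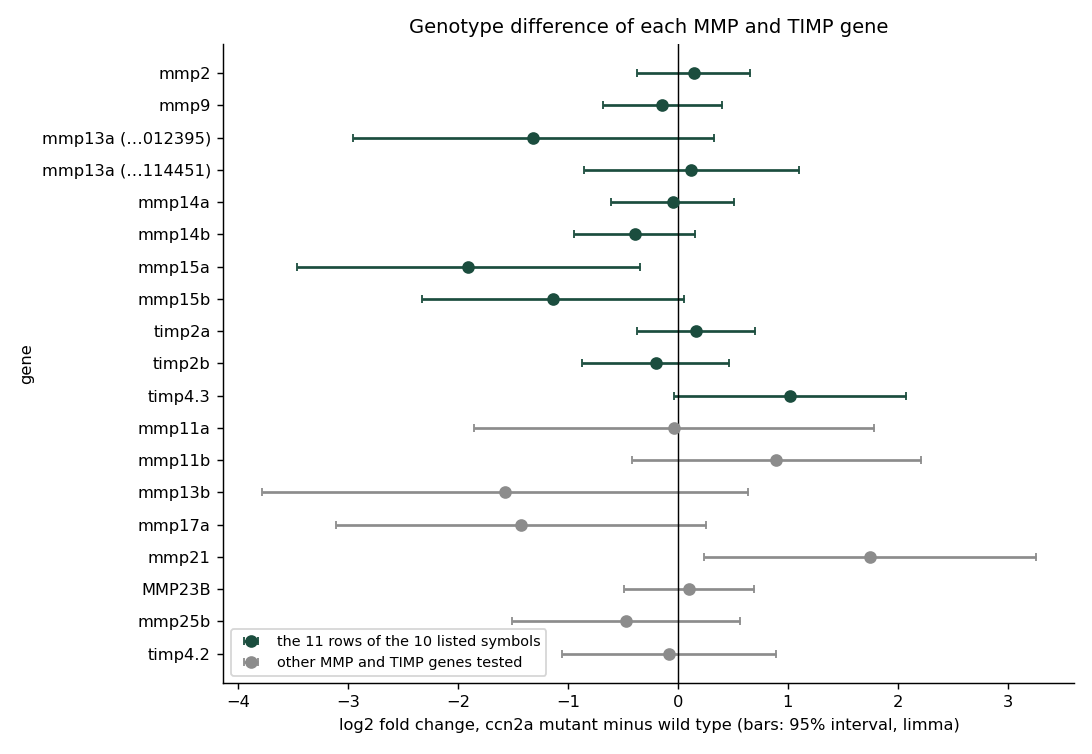
Log2 fold change (mutant minus wild type, horizontal axis) of the 11 rows and of the other listed MMP and TIMP genes tested. Bars are 95% intervals from limma. Of the 11 rows, only mmp15a has an interval that leaves out 0, from -3.47 to -0.35, before adjustment for the number of genes.

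Of the TIMP genes, 2 had higher values in the mutant and 1 had lower, none passing the test. The gene timp2a (ENSDARG00000061226, chromosome 12, 33990947 to 34035364), a co-ortholog of mammalian TIMP2, was at 4179 and 3561 in the mutants and at 3919 and 3017 in wild type, with overlapping groups. The log2 fold change was 0.17 (SE 0.220, 95% interval -0.37 to 0.71; limma, adjusted p = 0.722), and -0.023 without wild-type replicate 2. The co-ortholog timp2b (ENSDARG00000075261, chromosome 3, 57632965 to 57666996) was at 3507 and 4801 in the mutants and at 3910 and 5703 in wild type. Both timp2b groups held 1 low and 1 high library, and the log2 fold change was -0.20 (SE 0.274, 95% interval -0.87 to 0.47; limma, adjusted p = 0.726). Leaving out mutant replicate 1 (0.024) or wild-type replicate 2 (0.070) changed its sign.

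The inhibitor gene timp4.3 (ENSDARG00000100795, chromosome 11, 714386 to 718748) was the row with the largest difference on the higher side. It was at 156 and 104 in the mutants and at 86 and 45 in wild type. Both mutants lay above both wild types, with neighbouring values in mutant replicate 2 and wild-type replicate 1. The means were 130 ± 36.8 and 65.5 ± 29.0 (SD, n = 2 each), and the log2 fold change was 1.02 (SE 0.432, 95% interval -0.04 to 2.08; limma, adjusted p = 0.386). Without wild-type replicate 2 it was 0.56, and without wild-type replicate 1 it was 1.48.

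The tandem neighbour timp4.2 lies 3353 bases from timp4.3 and did not share that separation. It was at 122 and 111 in the mutants and at 174 and 87 in wild type, a log2 fold change of -0.08 (SE 0.397; limma, adjusted p = 0.936). Close copies can share reads here too. Summed, timp4.2 and timp4.3 were at 278 and 215 in the mutants and at 260 and 132 in wild type, which overlap.

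**Figure D3:**
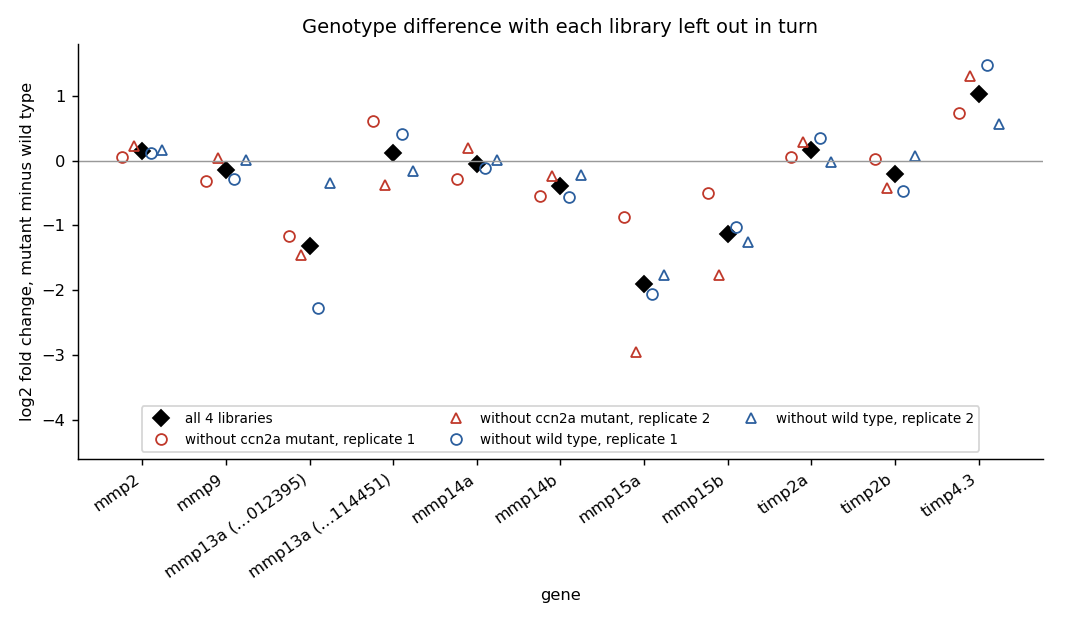
Log2 fold change of each row with all 4 libraries (filled diamonds) and with 1 library left out (open symbols, coloured by the genotype of the library left out). The value of mmp15a moves from -2.95 to -0.87 and that of timp4.3 from 0.56 to 1.48, while mmp9, mmp14a, timp2a, timp2b and the second mmp13a row (ENSDARG00000114451) cross 0.

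Ratios between genes of the same library do not depend on the library's size factor. A set of 7 ratios was computed, chosen after the values were seen, and in 3 of them the genotypes did not overlap. Among single genes tested, both mutants lay below both wild types for 25.7% and above for 26.6%, so this count alone is no result. With 4 libraries the smallest p of a 2-sided exact permutation test is 0.333, so no ratio could pass. The log2 ratio of mmp14a to mmp14b was -0.15 and -0.32 in the mutants and -0.46 and -0.69 in wild type, nearer to even in both mutants (exact permutation p = 0.333, adjusted p = 0.778 over the 7 ratios). The log2 ratio of timp4.3 to timp4.2 was 0.35 and -0.09 in the mutants and -1.02 and -0.95 in wild type. Here the wild types were close together and the mutants were both higher, by 1.11 on average (exact permutation p = 0.333, adjusted p = 0.778).

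The log2 ratio of mmp15a to mmp15b was 1.84 and 2.64 in the mutants and 2.74 and 3.25 in wild type, lower in both mutants (exact permutation p = 0.333, adjusted p = 0.778). Mutant replicate 2 and wild-type replicate 1 nearly touched in that ratio. The log2 ratio of mmp2 to timp2a was 1.69 and 1.74 in the mutants and 1.54 and 1.95 in wild type, and the wild types enclosed the mutants. The remaining ratios, of timp2a to timp2b, of mmp2 to timp2b and of the mmp13a rows to each other, also overlapped between the genotypes.

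**Figure D4:**
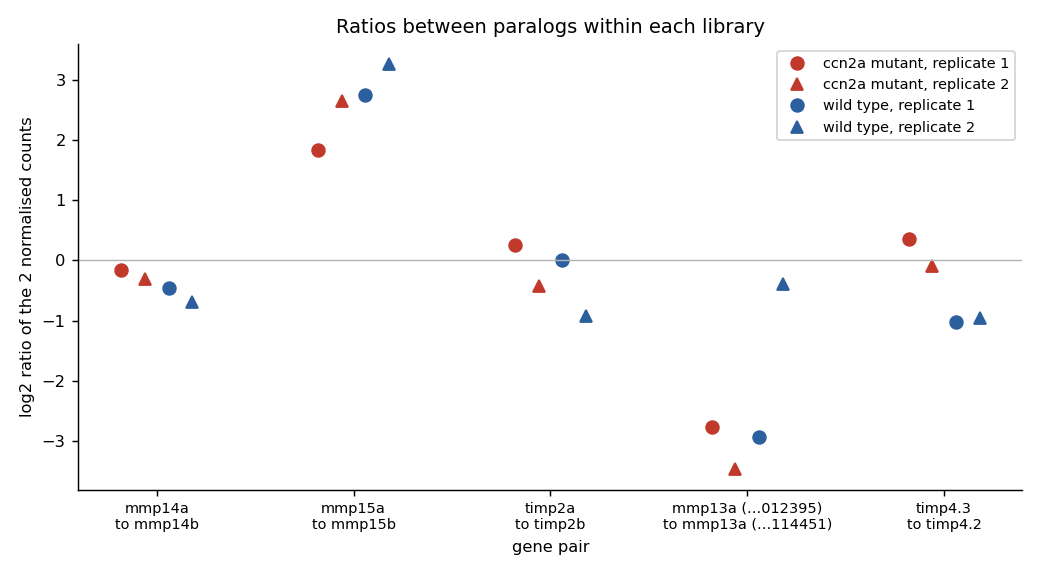
Log2 ratio of the normalised counts of 2 neighbouring or paralogous genes within each library, with 1 point per library. The ratio of timp4.3 to timp4.2 is at -1.02 and -0.95 in wild type and at 0.35 and -0.09 in the mutants. The ratio of the 2 mmp13a rows is apart in wild-type replicate 2 alone.

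Further MMP and TIMP genes were also mixed. A list of 23 further symbols matched 12 rows of the table, of which 8 were tested, 5 lower and 3 higher in the mutant (median -0.06). At an unadjusted p under 0.05 there was 1 gene, mmp21, on the higher side, beside 5.89% of all genes tested, and 0 passed adjusted (limma). The gene mmp21, known in vertebrates for left-right patterning, was at 21 and 22 in the mutants and at 8 and 4 in wild type (log2 fold change 1.75, SE 0.618; adjusted p = 0.381), which rests on few reads. The second collagenase gene mmp13b was at 130 and 52 in the mutants and at 631 and 96 in wild type, so its log2 fold change of -1.57 (SE 0.904; adjusted p = 0.437) came with overlapping groups and 1 high wild-type library. The stromelysin-3 gene mmp11b was at 90 and 81 in the mutants and at 76 and 27 in wild type, and its paralog mmp11a at 29 and 10 against 28 and 11. The row named MMP23B, whose UniProt gene name in the table is mmp23ba, was at 1956 and 1319 against 1529 and 1466, with overlapping groups. The genes mmp17a and mmp25b were at 8 and 24 against 27 and 57, and at 56 and 39 against 83 and 51. The rows of mmp17b, mmp23bb, mmp28 and mmp30 had at most 10 in any library and were not tested.

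Genes that activate or hold back these proteases gave 6 lower and 9 higher in the mutant among 15 tested (median 0.10). At an unadjusted p under 0.05, 1 was higher, beside 5.89% of all genes tested, and 0 passed adjusted (limma). The MMP inducer gene bsg was at 21026 and 19466 in the mutants and at 16226 and 12074 in wild type, with both mutants above. The convertase gene furina was at 858 and 718 against 669 and 501. The endocytic receptor gene lrp1ab was at 2137 and 2189 against 2450 and 3146.

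Most substrate genes had lower values in the mutant, without passing the test. Of 24 matrix substrate genes tested, 19 were lower and 5 higher (median -0.34, against 6.28e-05 over all genes tested). Of all 16730 genes tested, 8358 were lower and 8372 higher, the background for each list here. Both mutants lay below both wild types for 10 of the 24 and above for 1, beside 25.7% and 26.6% of all genes tested. The list was chosen with earlier results of these data known, so these counts are a description only. At an unadjusted p under 0.05, 3 were lower and 1 higher, beside 6.93% and 5.89% of all genes tested. None passed adjusted (limma). The fibronectin gene fn1a was at 18468 and 18406 in the mutants and at 29145 and 46681 in wild type (95% interval of the log2 fold change -1.75 to -0.25; adjusted p = 0.381), with both mutants lower. The tenascin gene tnc, at 162 and 267 against 503 and 922, and the versican gene vcana, at 22 and 13 against 44 and 63, had both mutants below both wild types, and the aggrecan gene acana, at 182 and 109 against 77 and 64, had both above.

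Of 23 genes for transcription factors and cytokines known to induce MMP genes, 15 were lower and 8 higher (median -0.14). At an unadjusted p under 0.05, 0 were lower and 1 higher, beside 6.93% and 5.89% of all genes tested. None passed adjusted (limma). The AP-1 gene jun was at 4247 and 3563 in the mutants and at 2763 and 2273 in wild type (log2 fold change 0.63, SE 0.209; adjusted p = 0.381). The related gene jund was at 2814 and 4708 against 2739 and 1719, while fosl1b was at 29 and 20 against 39 and 64 and stat3 at 446 and 871 against 980 and 1159.

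**Figure D5:**
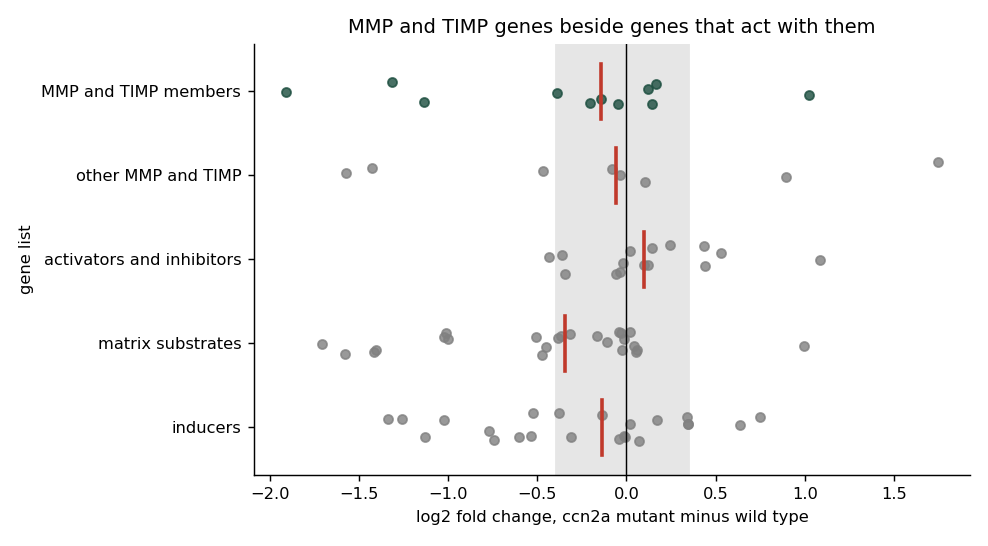
Log2 fold change of each tested gene (points) in the MMP and TIMP rows and in 4 lists of genes that act with them, with the median of each list as a red bar. The grey band runs from the first quartile (-0.39) to the third (0.35) of single genes over all genes tested, and is no measure of how far a list's median could lie from 0. The substrate genes have the lowest of the 5 medians, -0.34, with 19 of 24 genes lower, beside 8358 of all 16730 genes tested.

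In bulk ventricles, fewer cells of a type and less RNA per cell cannot be told apart. Neutrophils and macrophages are known sources of MMP9 in mammals. The 7 macrophage markers summed to 12647 and 13857 in the mutants and to 16929 and 17252 in wild type. Both mutants lay below both wild types for 5 of the 7, beside 25.7% of all genes tested, and none was at 0. Within that list csf1ra, the receptor gene that maintains macrophages, was at 132 and 660 in the mutants and at 1090 and 926 in wild type. Its mutants differed by 2.31 on the log2 scale, the widest gap between mutants of the 7 markers, the next being 0.62 for mfap4. The marker mpeg1.1 was at 3105 and 2636 against 2664 and 2881, with overlapping groups. The 5 neutrophil markers summed to 237 and 507 in the mutants and to 534 and 511 in wild type. Both mutants lay below for 2 of the 5, again beside 25.7% of all genes tested. These 2 were mpx, at 77 and 138 against 193 and 208, and csf3r, at 11 and 108 against 116 and 167. The mutants differed by 3.18 on the log2 scale for csf3r. The groups overlapped for npsn (136 and 232 against 184 and 115), higher in the mutant on average, and for lyz (10 and 26 against 41 and 16). The marker cxcr2 was at 0 in wild-type replicate 1 and at 5 or fewer elsewhere. The part of leukocytes in the MMP values was not tested.

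The 9 fibroblast and epicardial markers summed to 76031 and 44896 in the mutants and to 51739 and 49766 in wild type. Much of the sum came from postnb, at 45490 and 21172 against 24073 and 22735. Of the 9, 6 were lower and 3 higher (median log2 fold change -0.12), with both mutants below for 2 and above for 0. Over all genes tested, both mutants lay below both wild types for 25.7% and above for 26.6%, the background for each list here. The 7 endothelial and endocardial markers summed to 22946 and 22802 in the mutants and to 17640 and 15922 in wild type, and both mutants lay above for all 7. The 6 cardiomyocyte markers summed to 783657 and 655992 against 545037 and 399697, both mutants above for 5. The 4 smooth muscle and bulbus markers summed to 9148 and 6892 against 9010 and 11855. Both mutants lay below for elnb (376 and 317 against 944 and 494) and tagln (3815 and 2560 against 4094 and 6948) and above for myh11a (2035 and 2212 against 1741 and 2016). No marker of these 4 lists was at 0, and their part in the MMP and TIMP values was not tested. For blood, the 6 rows of erythrocyte markers summed to 220597 and 202096 against 135250 and 115403, and the 3 thrombocyte markers to 2747 and 2053 against 1722 and 1346. Both mutants lay above for all 6 erythrocyte rows (median log2 fold change 0.80) and for 2 of the 3 thrombocyte markers. Markers of pancreas and liver, tissues outside the heart, summed to 5123 and 4489 against 6070 and 9313. Most of that sum came from tfa (4929 and 4350 against 5313 and 8096). The liver markers fabp10a (19 and 1 against 1 and 3) and apoa1a (10 and 0 against 4 and 3) were near the floor. The sum is thus mainly a value of tfa, not of liver markers as a set. Of the 6 genes, 3 were tested, with both mutants below for ctrb1 (98 and 82 against 704 and 1179) and tfa and above for ela2l (59 and 50 against 44 and 23). The digestive enzyme genes differed in direction, and prss1 was at 8 and 6 against 4 and 9. The part of blood and of these tissues in the MMP and TIMP values was not tested.

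The genes most like mmp15a and timp4.3 were found among 13021 others with a mean of 50 or more, by the root mean square difference between log2 profiles centred over the 4 libraries. For mmp15a they were si:dkey-222h21.10 (0.0682), peak1 (0.0900) and arhgef2 (0.0995). For example, peak1 was at 22 and 114 in the mutants and at 182 and 213 in wild type, lowest in mutant replicate 1. For timp4.3 they were isca1 (0.0207), foxo4 (0.0289) and si:dkeyp-115e12.7 (0.0325), and foxo4 was at 1646 and 1091 in the mutants and at 868 and 464 in wild type. With 4 libraries and so many genes, a close profile is a description only.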

How the data were processed

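RNA from 4 ventricle samples was made into stranded mRNA libraries, per the labels' protocols. The submitters' processing notes list the tools STAR 2.4.0a, featureCounts 1.4.5-p1 and DESeq2 1.6.2, and the build GRCz10. Coordinates are those of the deposited table, whose build is not settled. The deposited values are whole-number scores, read as counts that the authors divided by a size factor and rounded, because the values skip regular numbers. Multiplying by the factor found for each library in this way gave the approximate depth. Counts could not be recovered exactly, so no count test was run. Genes with a mean of 10 or more (16730) were tested on log2(value + 1), which understates changes of low genes, with limma 3.58.1 (limma-trend, R 4.3.3), 2-sided, genotype as the only term and Benjamini-Hochberg adjustment over all genes. Each gene's variance rested on 2 residual degrees of freedom, with 4.01 added from the other genes. Other software was Python 3.11.15, matplotlib 3.10.9, numpy 2.4.6, pandas 2.3.3 and the R package data.table (version 1.17.8). The fit was also run on simulated libraries, drawn independently with the same setting of spread for every gene. These libraries need not share that setting, and no result here rests on the run.

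The members and lists were chosen with earlier results of these data known. All MMP and TIMP genes that the listed symbols matched are named, and the table was not searched for others under different names. From every other list the text draws on up to 4 tested genes with the smallest p, and the 3 genes closest in profile are given for the MMP and the TIMP row with the smallest p. Symbols missing from the table were looked up among its UniProt gene names. Single marker genes and neighbouring genes were chosen for naming after their values were seen. The values of 1 gene from the list of activators and inhibitors are not reported here. The sample numbers were not taken to pair the libraries. Alternatives were another pseudocount, 2 filters, 2 normalisations, voom weights, a replicate block and leaving out each library.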

Additional observations from a re-analysis of the deposited data

How the results depend on the processing

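Under the 11 alternatives, 0 genes and 0 of the 11 MMP and TIMP rows passed an adjusted p of 0.05. Of 121 values of the rows, 111 kept their direction. The 2 filters and the replicate block leave each log2 fold change unchanged, so the values under them could not reverse. Rows mmp14b, mmp15a, mmp15b, timp4.3 and the first mmp13a row (ENSDARG00000012395) kept their direction under every alternative tried. The groups of these rows do not overlap, so leaving out 1 library could not change their direction. Under quantile normalisation mmp2 reversed to -0.11. With 1 library left out, the range was -0.32 to 0.038 for mmp9, -0.37 to 0.62 for the second mmp13a row (ENSDARG00000114451), -0.29 to 0.19 for mmp14a, -0.023 to 0.35 for timp2a and -0.47 to 0.070 for timp2b, all of which include a reversal. The number of rows with an unadjusted p under 0.05 was 1, and became 3 under quantile normalisation (2246 of all genes), 2 with voom (2355 of all genes), 2 with the replicate block and 0 to 2 with 1 library left out. Over all genes, 2145 had an unadjusted p under 0.05, 448 to 2597 with 1 library left out (448 when wild-type replicate 2 was left out, 648 for mutant replicate 1). With the replicate block the number was 2655. The deviations of same-numbered libraries had a correlation of 0.0041 across genes. On principal component 1, replicate 1 lay above replicate 2 in the mutants (78.9 and 16.4) and in wild type (-24.7 and -70.6). With 2 libraries per genotype these values cannot show whether same-numbered samples were handled together, which was not tested. A fit that leaves out a library has 1 sample in an arm, which is assumed to vary like the other group, and fewer residual degrees of freedom. The cause of the differences between settings was not tested. With 2 libraries per genotype, intervals such as -0.37 to 0.66 for mmp2 limit what can be seen, and the low rows (26 to 37 in 3 libraries of the first mmp13a row) add counting error.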
